A study of Mus musculus with 38 samples.

Results

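EphA receptors are receptor tyrosine kinases of the cell surface whose ligands, the ephrin-A proteins, are anchored to the membrane of neighbouring cells. Binding at cell contacts signals into the receptor-bearing cell and also back into the ligand-bearing cell, and the system is best known for guiding axons, sorting cells at tissue boundaries and shaping epithelia. The related EphB receptors bind mainly ephrin-B proteins, and in blood vessels Ephb4 marks veins and Efnb2 arteries. The 8 genes described here, Epha1 to Epha8, are 8 of the 21705 genes measured. The family was chosen by measured values, namely the higher Epha8 level with doxycycline in VM-3055 cells and in VM tumours against kidney, so the values of all 8 members in those contrasts are given as a description without a test.

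RNA sequencing covered 38 libraries in 10 groups from mice and mouse cell lines in which doxycycline (Dox) switches on a MYC transgene. MYC animals and cells carry the genotype MYC+, VM ones Vhl-/-; MYC +, and VIM ones Vhl-/-; MYC +; Ink-/-/Arf-/-, while normal kidney is Wild Type. Each of the 3 cell lines gave 4 libraries maintained on dox and 4 from cells that withdrew dox, with 2 µg/ml Dox and collection 24 h after plating. The 9 tumour libraries, 3 for each genotype, came from mice maintained on dox, and the 5 normal kidneys are labelled vehicle. The transgene is driven through rtTA under the kidney cadherin (Ksp) promoter, Vhl is removed by a tamoxifen-inducible Cre, and the Ink4a/Arf deletion is germline. A line came from a single tumour (MYC line 2983 in the labels, VM-3055 and VIM-3039 in the paper), so line and genotype cannot be told apart. Mouse 2983 also gave 2 of the 3 MYC tumour libraries, whose values were averaged on the log2 scale for tests, and mouse 3055 gave 1 VM tumour library. Of the kidneys, 2 are titled B6 and 3 KT. The labels give no strain or age beyond this, and nothing states that libraries of a cell group came from separate cultures, so the p-values in cells measure a spread that may be technical.

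Levels are RSEM read counts that the authors scaled to the upper quartile of each library, called units here. Library depth lay between 8.22 and 36.6 M estimated reads, and a floor of 3 reads was worth between 1.16 and 5.65 units. Differences are log2 changes of (units + 1) with the standard error (SE) from limma, and a gene passed when its two-sided p, adjusted over all genes tested, was under 0.05 and its log2 change exceeded 1 in size. Intervals and the floor cover counting error only.

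The engineered genes followed the labels in part. Vhl lay between 8.32 and 38.8 units in VM and VIM cells and between 433.4 and 543.4 units in MYC cells, while VIM tumours held 226, 219.3 and 312.1 units. Cdkn2a, the gene of the Ink4a/Arf locus, lay between 24.9 and 40.8 units in VIM cells and between 3056 and 5701 units in the other cells. In VIM tumours, whose label names the deletion, Cdkn2a was still higher than in normal kidney. In the MYC tumours it read 108.2, 2872 and 59.3 units, so the libraries of mouse 2983, the latter 2, stood apart from each other. Mouse Myc was higher without Dox in all 3 lines, 1764 to 1868 units against 650.7 to 699.4 in MYC cells, and whether reads of the transgene reach this gene was not tested. The renal epithelial marker Cdh16 was at least 3464 units in every library, and Pax8, a nephron transcription factor, at least 897.9 units.

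All 8 members were above 0 in at least 1 library, but few were read in every group. Epha1, Epha2 and Epha4 were above the floor in all 38 libraries. Epha8 was above the floor in 19, Epha7 in 24 and Epha3 in 11 libraries, and Epha5 and Epha6, receptors known mostly from the nervous system, in 1 library each at no more than 6.17 and 6.33 units. Divided by the length of the merged exons, Epha2 made up the bulk of the EphA level in cells, from a mean of 80.6% in MYC cells with Dox to 93.1% in VIM cells with Dox. Normal kidney was made up mainly of Epha1 at 82.8% (78.7 to 88.6% over 5 kidneys). VM tumours were made up mainly of Epha8 at 77.9% (56.4 to 90.8% over 3 libraries). Epha8 made up 46.2% in VIM tumours (24.9 to 85.1%) and 31.3% in MYC tumours (8.09 to 61.9%), means that replicate 3 of each raised. The summed EphA level per kb was 501 ± 23.5 units (SD, n = 4) in MYC cells with Dox and 1214 ± 22.8 without, 514 ± 29.7 and 919 ± 8.26 in VM cells, and 574 ± 20.1 and 1141 ± 42.3 in VIM cells. The sum was therefore higher without Dox in each line, and every line kept Epha2 as its leading EphA receptor.

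**Figure D1:**
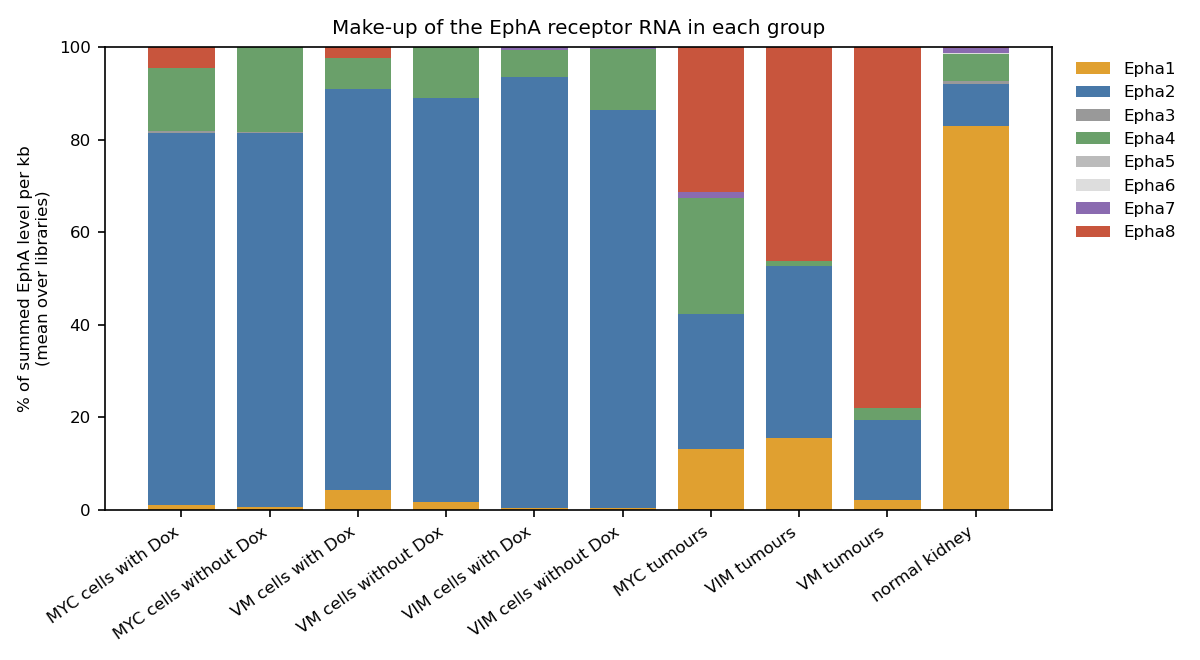
Share of each member in the summed EphA level per kb, as the mean over the libraries of each of the 10 groups. Epha2 leads in all 6 cell groups, Epha1 in normal kidney at 82.8%, and Epha8 in VM tumours at 77.9%.

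Epha8, a receptor known from the developing nervous system (Ensembl ENSMUSG00000028661.8; mm9 chr4:136485334-136512731, minus strand), was read 5 times in the 4 VM libraries without Dox and 290 times in the 4 with Dox. With Dox the VM cells held 74.6, 61.3, 56.9 and 43.9 units, and without Dox they held 0.882, 0, 0.775 and 2.28 units. The groups did not overlap, and all 4 libraries without Dox were at or under 3 reads. The log2 difference was 5.02. These are the values that chose the family.

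In MYC cells, which played no part in that choice, Epha8 rose with Dox. The MYC cells with Dox held 88.3, 118, 110.5 and 104.8 units, and those without Dox held 1.97, 0.658, 1.16 and 2.18 units. The groups did not overlap, with 779 against 10 reads and a pooled ratio of 69.8 (95% Clopper-Pearson interval 37.7 to 146). The rise was 5.46 on the log2 scale (SE 0.219, limma adjusted p = 7.24e-14), seen in all 4 libraries with Dox. The exact permutation test of 4 against 4 libraries gave p = 0.0286, the smallest it can give.

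VIM cells held almost no Epha8 RNA under either condition. With Dox they held 0, 0, 2.63 and 0 units, which is 4 reads in 1 library, and without Dox all 4 libraries were at 0. The gene was above 0 in too few libraries for the fit of this line. The Dox effect in VIM minus that in MYC cells was -4.99 on the log2 scale over 16 libraries, -5.51 with voom and -2.75 with edgeR on the recovered reads. No p is given, since Epha8 entered this fit through the MYC libraries and a Dox effect in VIM cells was not detectable at this depth, so the value largely restates the MYC rise. Between the lines with Dox, the pooled read ratio of MYC over VIM cells was 149, from 779 against 4 reads. The fitted difference was -6.26. No p or interval is given for this pair because Epha8 met the filter through the MYC libraries. Against VM cells with Dox, where no test was made, the VIM value was -5.42. The VM value against MYC cells, also untested, was -0.84 and became -0.18 after quantile normalization, with 43.9 to 74.6 units in VM and 88.3 to 118 units in MYC cells.

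In tumours Epha8 reached higher levels than in any cell library, except in 1 MYC tumour. The 3 VM tumours held 3136, 2774 and 811.3 units, and the VM tumour of mouse 3055 is the second of these. The 5 normal kidneys held 0, 0, 0, 4.89 and 0 units, which is 3 reads in all. The groups did not overlap, and the log2 difference of 10.40 is again a value that chose the family.

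The MYC tumours held 61.6 units in mouse 2917 and 271.6 and 929.4 units in the libraries of mouse 2983. All 3 lay above the 5 kidneys. The fitted difference was 6.96, and it was 5.46 without mouse 2983 and 8.47 without mouse 2917. MYC tumours replicate 3 held 658 of the 900 tumour reads, where the kidneys held 3. The VIM tumours held 248.6, 206.8 and 1621 units, again all above the kidneys. The fitted difference was 8.26, and 7.32 without VIM tumours replicate 3, which held 883 of the 1180 reads. No p or interval is given for Epha8 against kidney, since it met the filter through the tumours and the same kidneys served the choice of the family. VIM tumours thus carried Epha8 RNA while the VIM line held almost none, a contrast between tissue and cells that was not tested. In bulk RNA a smaller number of cells of a type and less RNA per cell cannot be told apart.

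By mean level, the groups ran from VM tumours (2240 units) through VIM tumours (692), MYC tumours (421), MYC cells with Dox (105) and VM cells with Dox (59.2) down to MYC cells without Dox (1.49), VM cells without Dox (0.984), normal kidney (0.977), VIM cells with Dox (0.656) and VIM cells without Dox (0). The ranges of VM and VIM tumours overlapped, as did those of VM and MYC tumours and those of VIM and MYC tumours. For VIM against MYC tumours the difference of 1.30 did not pass (SE 1.13, limma adjusted p = 0.592) and was -0.20 without MYC tumours replicate 1. MYC tumours also overlapped with MYC cells with Dox and with VM cells with Dox, while these cell groups did not overlap with each other. The lowest 5 groups were near or under the floor and could not be ordered at this depth.

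**Figure D2:**
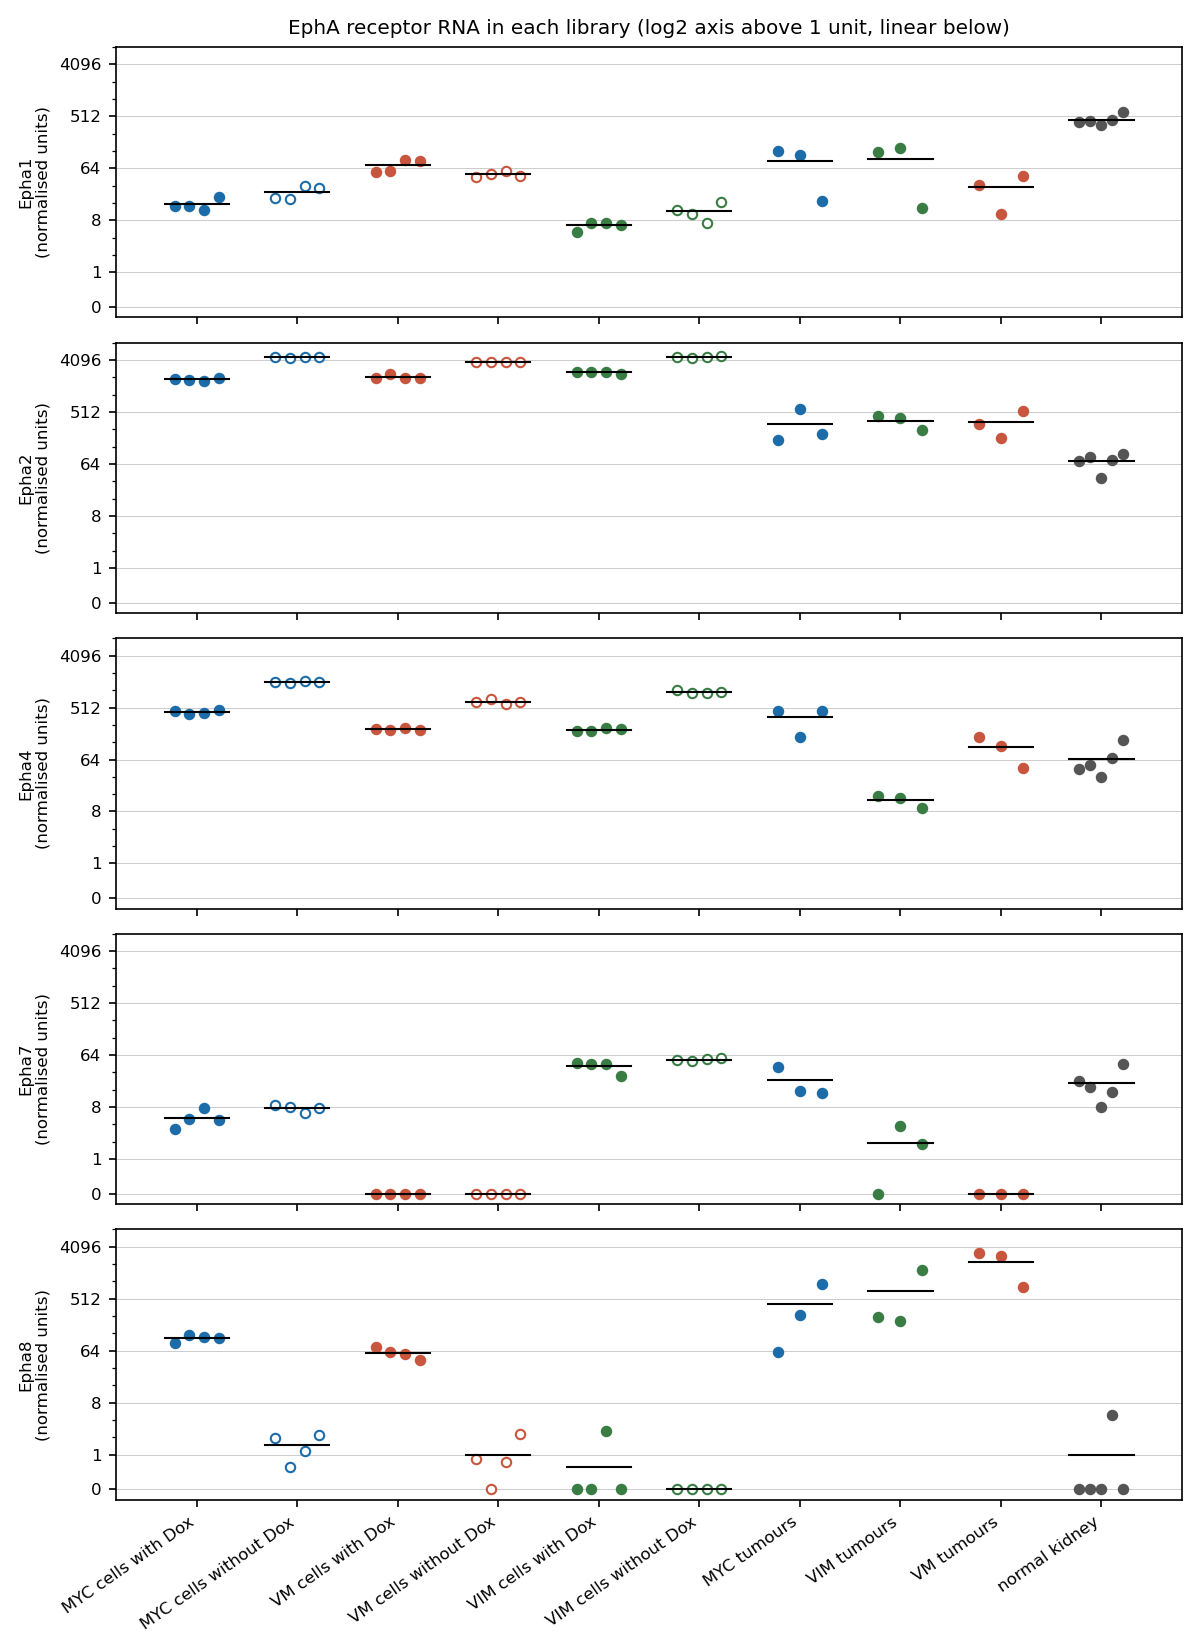
Units of 5 members in each of the 38 libraries (points, open without Dox) with the group mean (line), on a log2 axis that is linear below 1 unit. Epha8 separates cells with and without Dox in the MYC and VM lines and tumours from kidney, Epha1 is highest in kidney, and Epha2 is highest in cells.

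The promoter of Epha8 is shown because it was the single member promoter that held the E-box CACGTG, the sequence that MYC and its partner MAX are known to bind. RefSeq promoters (GRCm38.p6, 250 bases before to 50 after the start) were found for 8 of 8 members. CACGTG stands in 7.15% of 32851 promoters of this length, and the match in Epha8 begins at base -148 from the start (the motif reads the same on both strands). The shorter ACGTG, searched on both strands, stands in 19.6% of promoters, and both matches in Epha8 lie inside CACGTG. Epha4 holds 1 match to ACGTG. A further motif, CACGCG on both strands, stands in 9.27% of promoters and 4 times in Epha8, whose window is 84.3% G and C. Epha2 holds none of the 3 motifs, in a window of 54.7% G and C, and is printed beside Epha8 for comparison because its level moved the other way with Dox. The matches are descriptions of letters, and binding was not measured. In the sequences below, from the strand of each gene, capitals mark CACGTG (Epha8 at chr4:136956767-136957066, minus strand; Epha2 at chr4:141300971-141301270, plus strand).
Epha8: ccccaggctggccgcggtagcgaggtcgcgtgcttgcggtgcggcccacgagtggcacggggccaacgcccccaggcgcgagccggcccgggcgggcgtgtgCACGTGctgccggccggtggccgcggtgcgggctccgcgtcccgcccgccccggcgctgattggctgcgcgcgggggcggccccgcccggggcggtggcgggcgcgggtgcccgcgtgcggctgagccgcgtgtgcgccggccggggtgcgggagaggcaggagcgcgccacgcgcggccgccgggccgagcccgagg
Epha2: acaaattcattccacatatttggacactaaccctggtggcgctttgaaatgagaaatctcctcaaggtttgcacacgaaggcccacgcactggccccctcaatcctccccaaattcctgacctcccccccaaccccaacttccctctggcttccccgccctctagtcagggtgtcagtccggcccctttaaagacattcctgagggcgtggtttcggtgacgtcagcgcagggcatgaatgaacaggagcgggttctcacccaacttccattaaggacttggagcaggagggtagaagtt

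With Dox, the members other than Epha8 that passed the test were lower, as were most genes that passed. Of all calls, 23.0% were higher with Dox in MYC cells and 31.6% in VIM cells. In MYC cells 6 of 8 members could be tested and 3 passed, Epha8 up and Epha2 and Epha4 down, where 19.5% of all genes tested passed. In VIM cells 5 could be tested and Epha4 alone passed, downward, against 24.3% of all genes. The median log2 change of the members was -0.59 in MYC cells and -0.70 in VIM cells, beside -0.13 and -0.15 over all genes tested. Apart from Epha8, whose Dox effect could not be compared between these lines, 0 of 5 members differed in Dox effect past both limits, against 9.06% of all genes.

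Epha2, the epithelial receptor whose main ligand is ephrin-A1 (mm9 chr4:140857155-140885299), was the most abundant member in cells. MYC cells held 1942, 1849, 1777 and 1983 units with Dox and 4577, 4512, 4653 and 4607 without. The groups did not overlap, and the level fell by 1.28 on the log2 scale with Dox (SE 0.0312, limma adjusted p = 8.93e-17). VIM cells held 2510, 2574, 2546 and 2369 units with Dox and 4685, 4377, 4542 and 4747 without. Here too every library with Dox lay below every library without, yet the change of -0.88 (SE 0.0344, limma adjusted p = 8.92e-16) was short of the required size. The effects differed by 0.41 (SE 0.0485, limma adjusted p = 4.26e-07), less than the limit of 1. VM cells held 2022, 2311, 1980 and 2008 units with Dox and 3735, 3727, 3814 and 3721 without, groups that did not overlap and differed by -0.85 with no test. Across lines with Dox, the level in VIM cells was 0.41 above that in MYC cells on the log2 scale (limma adjusted p = 1.73e-07), a difference of less than 1.

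In tissue Epha2 stood higher in tumours than in kidney. The kidneys held 70.9, 83.2, 36.1, 74.9 and 96.1 units. The MYC tumours held 169.8, 567.9 and 207.6 units, the VIM tumours 429.4, 396 and 253.3 units, and the VM tumours 319.6, 183.5 and 521.6 units. No tumour library overlapped with the kidneys. The rise was 1.80 in MYC tumours (SE 0.442, limma adjusted p = 0.00958) and 2.33 in VIM tumours (SE 0.353, limma adjusted p = 0.000424). Without mouse 2983 the MYC value was 1.29 and did not pass, in a fit where the single mouse left was assumed to vary as the kidneys do. The untested difference of VM tumours was 2.17.

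Epha4 (mm9 chr1:77363760-77511663, minus strand), a receptor that can bind ligands of both ephrin classes, was the member that was lower with Dox in all 3 lines by more than 1. MYC cells held 445, 400.2, 411.8 and 471.2 units with Dox and 1417, 1350, 1479 and 1398 without. VIM cells held 200.6, 200.3, 223.8 and 215.7 units with Dox and 1026, 907.5, 923.5 and 946.5 without. In both lines the groups did not overlap. Epha4 fell by 1.71 in MYC cells (SE 0.0457, limma adjusted p = 2.87e-16) and fell by 2.17 in VIM cells (SE 0.0564, limma adjusted p = 9.46e-19). The effects differed by -0.47 (SE 0.0741, limma adjusted p = 1.89e-05), which is short of the limit of 1. VM cells held 218, 209.4, 225 and 208.8 units with Dox and 635.8, 724.7, 579.1 and 631.2 without, also without overlap, and the untested difference was -1.57.

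Between the lines with Dox, Epha4 was highest in MYC cells. VIM cells were lower by -1.04 (SE 0.0624, limma adjusted p = 1.55e-09), a call that was lost at -0.89 under TMM, voom or edgeR, at -0.86 after quantile normalization, and at -0.99 without MYC cells with Dox replicate 4. VM cells were lower than MYC cells by -0.999 (SE 0.0607, limma adjusted p = 2.84e-09), a value just short of the limit that passed with a pseudocount of 0.1. It also passed, between -1.04 and -1.01, without MYC cells with Dox replicate 2 or 3 or without VM cells with Dox replicate 1 or 3. VIM and VM cells differed by -0.04 (limma adjusted p = 0.667), which does not show that they were equal.

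The tumours were not alike in Epha4. The kidneys held 43.3, 51.1, 32.1, 66.8 and 139.2 units. The MYC tumours, at 439.4, 155.9 and 439.3 units, lay above all of them, and the VIM tumours, at 15.1, 13.8 and 9.18 units, below all of them. The rise in MYC tumours was 2.52 (SE 0.54, limma adjusted p = 0.00495), and in VIM tumours Epha4 fell by 2.14 (SE 0.491, limma adjusted p = 0.00473). With the B6 kidneys alone the VIM value was -1.51 and did not pass. Compared directly, VIM tumours were at -4.66 against MYC tumours (SE 0.641), with no overlap, yet the adjusted p of 0.155 from limma did not pass. VM tumours, at 157.1, 108.2 and 45.6 units, overlapped with the kidneys, and their untested difference was 0.65.

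Epha1 (mm9 chr6:42308486-42323267, minus strand), a receptor of many epithelia, overlaps Zyx on the opposite strand, and whether strand was used in assigning reads is not stated. It led the family in normal kidney, where it held 414.5, 423.4, 362.4, 438.5 and 607.7 units. The MYC tumours held 126.4, 110.2 and 17.2 units, the VIM tumours 121.5, 146.6 and 13.1 units, and the VM tumours 32.4, 10.5 and 46.5 units. No tumour overlapped with the kidneys, and within MYC and VIM tumours 1 library lay far below the other 2. Epha1 fell by 2.55 in MYC tumours (SE 0.382, limma adjusted p = 0.000878) and fell by 2.81 in VIM tumours (SE 0.662, limma adjusted p = 0.00551). The untested difference of VM tumours was -4.08. Without VIM tumours replicate 3 the VIM value was -1.72, and it still passed. With the B6 kidneys alone it was -2.62 and did not pass.

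In cells Epha1 separated the lines more than the Dox conditions. VM cells with Dox held 55, 57.9, 90.8 and 84 units, MYC cells 14.2, 14.3, 12 and 20.5 units, and VIM cells 5.09, 7.04, 7.26 and 6.62 units. No line overlapped with another. Against MYC cells, Epha1 rose by 2.16 in VM cells (SE 0.207, limma adjusted p = 3.66e-07) and was -1.10 in VIM cells (SE 0.217, limma adjusted p = 0.000346). The VIM call was lost at -0.97 under TMM, at -0.61 with a pseudocount of 10 and at -0.96 without MYC cells with Dox replicate 4, and the sign turned to 0.06 after quantile normalization. Against VM cells the VIM value was -3.26 (SE 0.213, limma adjusted p = 8.82e-10). Without Dox the MYC cells held 19.3, 18.6, 31.9 and 29.1 units, the VM cells 45.2, 50.9, 57.3 and 47.9 units, and the VIM cells 11.9, 10.4, 7.32 and 16.7 units. The Dox differences were -0.65 in MYC and -0.70 in VIM cells, neither past 1, and 0.48 in VM cells with no test.

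Epha7 (mm9 chr4:28740281-28894649), another guidance receptor, marked the VIM line among the cells. VIM cells held 46.5, 44.4, 45.3 and 27.5 units with Dox and 52.2, 50.2, 54.1 and 58.1 without. MYC cells held 3.35, 4.89, 7.59 and 4.72 units with Dox and 8.53, 7.90, 6.37 and 7.62 without, and all 8 VM libraries were at 0. The lines with Dox did not overlap. Epha7 was higher in VIM than in MYC cells by 2.79 (SE 0.242, limma adjusted p = 8.96e-08). Against VM cells with Dox, the VIM level was at least 67-fold higher, counting 3 reads over the VM group. No p is given for Epha7 against VM cells, since all VM libraries were at 0 and the gene met the filter through the other line. Its Dox differences of -0.52 in MYC cells and -0.41 in VIM cells were under 1 in size, and the VIM value turned to 0.14 after quantile normalization.

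VIM tumours did not share the Epha7 level of the VIM line. They held 0, 3.76 and 1.84 units, the VM tumours were at 0, and the MYC tumours held 40.1, 15.4 and 14.1 units. The kidneys, at 22.5, 17.5, 8.03, 14.7 and 44.3 units, lay above all VIM and VM tumours and overlapped with the MYC tumours. The fitted Epha7 difference of VIM tumours from kidney was -3.03, and -2.61 with the B6 kidneys alone. No p is given, since the VIM tumours held 4 reads in all. Each was at or under the floor, so the difference follows from the kidney levels. The MYC difference of 0.39 did not pass (limma adjusted p = 0.657) and was -0.30 without MYC tumours replicate 1.

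Epha3, a further ephrin-A receptor (mm9 chr16:63543364-63863984, minus strand), was low everywhere, with a highest value of 11.4 units. MYC cells with Dox held 5.03, 11.4, 9.21 and 6.81 units, VM cells were at 0, and VIM cells held at most 0.693 units with Dox. The MYC libraries did not overlap with those of the other lines. The read counts set MYC at least 13.1-fold above VM cells, counting 3 reads over the VM group. The pooled ratio to VIM cells was 45.9, where only 1 read was seen. No p or interval is given, since Epha3 met the filter through the MYC libraries. In VIM tumours, where 1 read was seen, the fitted Epha3 difference from kidney was -2.19, and it was -0.57 with a pseudocount of 10. The MYC tumour value of -1.50 did not pass (limma adjusted p = 0.114), and it was -2.69 without mouse 2983, which leaves a single MYC mouse at 0 and so is no test.

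Between lines with Dox, a member entered the test when above 0 in 4 libraries, and some did so only through the line where they were high. This holds for Epha3 and Epha8 in VIM against MYC cells, for Epha7 in VIM against VM cells, and for Epha3 and Epha7 in VM against MYC cells. They had to differ, so the counts below are descriptions that support nothing. Between VIM and MYC cells with Dox 5 of 6 members tested passed, Epha7 up and Epha1, Epha3, Epha4 and Epha8 down, where 23.9% of all genes passed. Of the 7 members without Epha8, VM against MYC cells gave 3 of 5 tested, Epha1 up and Epha3 and Epha7 down, against 24.6% of all genes, and VIM against VM cells gave 2 of 4, Epha7 up and Epha1 down, against 19.1%.

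Against normal kidney, 4 of 8 members passed in MYC tumours, with Epha2, Epha4 and Epha8 up and Epha1 down, where 37.4% of all genes passed. In VIM tumours 6 of 7 tested passed, with Epha2 and Epha8 up and Epha1, Epha3, Epha4 and Epha7 down, against 39.6% of all genes. The medians were 0.43 in MYC and -2.14 in VIM tumours, beside 0.07 and 0.01 over all genes, and they stayed the same with Epha6, which is at 0 in both tumour groups, set to its bound. Epha8 entered these tests through the tumours, and Epha3 that of VIM tumours through the kidneys. Both had to differ. Epha7 was at or under the floor in every VIM tumour, so its call there follows from the kidney levels. The counts and medians that hold these genes are therefore descriptions that support nothing. With the 2 B6 kidneys alone, 2 of the VIM calls remained, Epha2 and Epha8. With the 3 KT kidneys alone, no member call changed. VIM against MYC tumours gave 0 calls among 6 members, against 0.00616% of all genes, which is 1 of 16246. At an unadjusted p under 0.05 limma counted 2361 genes there, voom 2452 and edgeR 2451. With adjustment, voom and edgeR called 0 of all genes.

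EphB receptors, the other receptor class, and ephrins were lower with Dox where they passed. Other settings added rises, of Efnb3 in VIM cells (1.37 after quantile normalization, 1.007 with edgeR) and in MYC cells (1.37 after quantile normalization, 1.12 with voom, 1.11 with edgeR, 1.10 with a pseudocount of 0.1), and of Efna3 in MYC cells (1.03 after quantile normalization). Ephb6, a receptor known to lack kinase activity, held 36.8, 30.5, 31.5 and 21 units in VIM cells with Dox and 140.5, 133.8, 125.5 and 162.6 without. The groups did not overlap, and Ephb6 fell by 2.21 (SE 0.159, limma adjusted p = 3.26e-11). In VM cells it held 17.7, 3.40, 15.3 and 6.14 units with Dox and 56.4, 71, 79.1 and 105.6 without, again with no overlap, and it fell by 2.96 (SE 0.355, limma adjusted p = 5.86e-07). In MYC cells its difference was -0.60, and the VIM effect exceeded the MYC effect by -1.61 (limma adjusted p = 3.81e-06). Ephb1 fell by 1.39 in VM cells and Ephb3 by 1.03 in MYC cells, and the latter was short of the limit at -0.92 under TMM, voom or edgeR and at -0.88 after quantile normalization. Ephb4 was the most abundant EphB receptor by units in each group and passed in no Dox comparison. Ephb2, whose gene lies 93.4 kb from Epha8 on the same strand, differed with Dox by 0.29 in MYC and -0.20 in VM cells, neither past 1.

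Among the ligands, Efnb2, an ephrin-B, passed in every line. Efnb2 held 1306, 1289, 1182 and 1321 units in MYC cells with Dox and 3442, 3295, 3427 and 3479 without. In VIM cells it held 703.1, 716.1, 713.3 and 698 units with Dox and 2019, 2020, 1960 and 2062 without, and in VM cells 37, 32.3, 29.7 and 29.8 units with Dox and 71.4, 85.3, 79.8 and 68.4 without. Dox groups overlapped in no line, and VM cells lay far below the other lines. Efnb2 fell by 1.42 in MYC cells (SE 0.0332, limma adjusted p = 5.59e-17), by 1.51 in VIM cells (SE 0.0343, limma adjusted p = 1.18e-19) and by 1.22 in VM cells (SE 0.145, limma adjusted p = 5.51e-07). The VM call was lost at -0.53 after quantile normalization. Between lines with Dox, Efnb2 was lower in VM than in MYC cells by -5.27 (SE 0.078, limma adjusted p = 3.03e-15). Efnb1 fell by 1.44 in MYC and by 1.59 in VIM cells, and Efna4, an ephrin-A, fell by 1.38 in both VIM and VM cells.

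Efna1, the main ligand of Epha2, did not reach a change of 1 with Dox in any line. It held 875.9, 1270 and 981.6 units in MYC tumours, 1190, 591.5 and 2157 in VIM tumours and 1762, 907.2 and 977.8 in VM tumours, against 609, 448.2, 629.2, 540.7 and 466.8 units in kidney. Most tumour libraries lay above the kidneys, the exception being 1 VIM tumour at 591.5 units. The rise was 1.11 in VIM tumours (SE 0.349, limma adjusted p = 0.0234) and 1.12 in VM tumours (SE 0.23, limma adjusted p = 0.00229), while 0.89 in MYC tumours was short of the limit. Efna5, a neural guidance ligand, moved the other way. The kidneys held 83.1, 129.9, 71, 73.3 and 130.3 units, and no tumour exceeded 50.9 units. It fell by 4.35 in MYC tumours (SE 0.659, limma adjusted p = 0.000925), whose libraries ran from 0.933 to 50.9 units. In VIM tumours, at 1.84 to 23.8 units, it fell by 3.77 (SE 0.651, limma adjusted p = 0.000918). The floor was at least 2.80 units in MYC and 3.76 in VIM tumours, so the lowest library of each lay under it. The sizes of both falls thus rest in part on values under the floor. In VM tumours Efna5 fell by 6.16, without a p since 2 of 3 VM libraries were at 0.

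**Figure D3:**
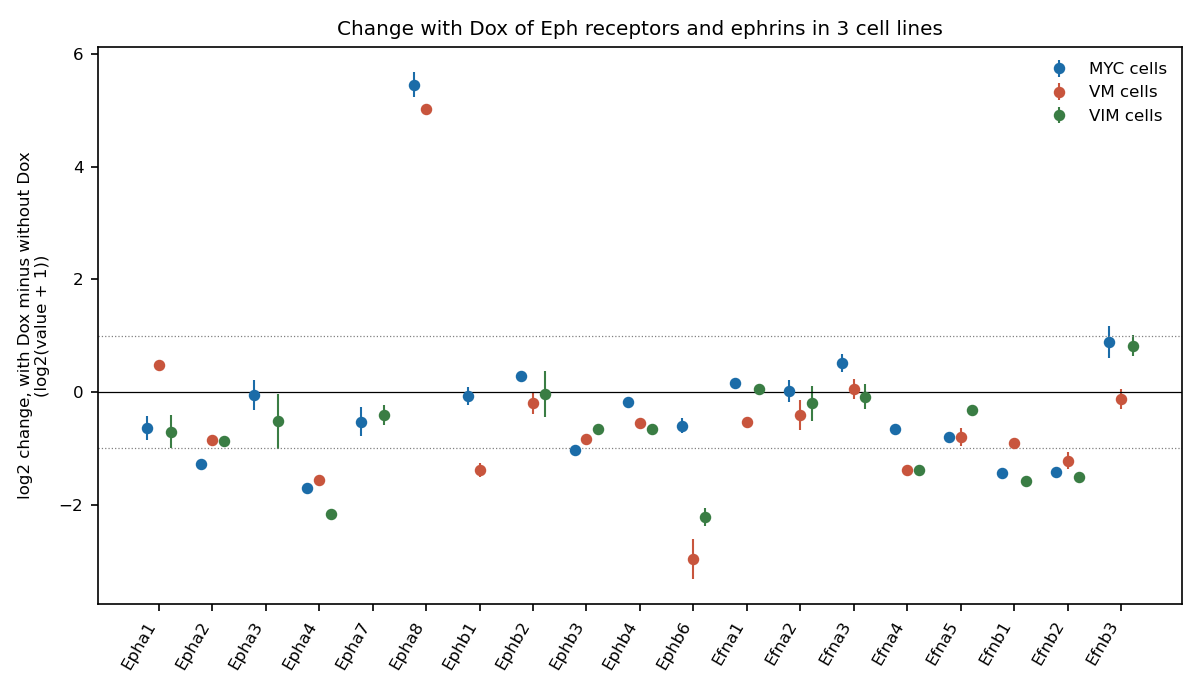
Log2 change with Dox of Eph receptors and ephrins in the 3 lines, with the SE of limma as bars and dotted lines at -1 and 1. EphA members in VM cells have no SE, genes above 0 in fewer than 4 libraries are not drawn, and Epha8 is higher with Dox in MYC and VM cells, while Epha4 and Efnb2 are lower in all 3 lines.

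The pathway list around the members holds 39 genes, made of Epha10 (listed at 0 in all 38 libraries), 5 EphB receptors, 8 ephrins and 25 signalling partners. With Dox, 8 of 36 tested passed in VIM cells (1 up), 7 of 38 in MYC cells (1 up) and 7 of 36 in VM cells (1 up), where 24.3%, 19.5% and 24.8% of all genes passed. Grip1, a scaffold protein that binds ephrin-B and Eph receptors, was the gene that rose in VIM cells by 1.27 (SE 0.338, limma adjusted p = 0.00196) and in MYC cells by 1.08 (SE 0.124, limma adjusted p = 2.53e-07). In VM cells that gene was Tiam1, an exchange factor for Rac, with 1.14 (SE 0.0731, limma adjusted p = 1.26e-10). Chn2, a Rac GTPase-activating protein, fell by 1.86 in MYC cells (SE 0.108, limma adjusted p = 1.43e-11) and by 1.70 in VM cells (SE 0.0895, limma adjusted p = 7.95e-12). Its Dox effect was higher in VIM than in MYC cells by 1.65 (SE 0.224, limma adjusted p = 2.49e-06), and 3 of 38 pathway genes passed in that comparison, against 9.06% of all genes.

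Between lines with Dox the pathway list gave 12 of 38 for VIM against MYC cells (3 up), 10 of 37 for VIM against VM cells (4 up) and 12 of 37 for VM against MYC cells (5 up), where 23.9%, 19.1% and 24.6% of all genes passed. Each count holds genes that entered through the line where they were high. These are Ephb1 in the comparisons with VIM cells, Grb10 in those with VM cells, and Anks1b in VM against MYC cells. They had to differ, so the counts are descriptions that support nothing. Grb10, an adaptor of tyrosine kinase receptors, had the largest differences among these genes in the comparisons with VM cells. It averaged 6551 units in VIM, 908 in MYC and 0.398 units in VM cells with Dox, where 2 reads were seen in all. The fitted value was -9.41 for VM against MYC cells, 12.26 for VIM against VM cells and 2.85 for VIM against MYC cells (limma adjusted p = 9.67e-17), of which those with VM cells depend on the pseudocount. Ephb2 and Ephb1 were lower in VIM than in MYC cells, by -5.29 (SE 0.333, limma adjusted p = 2.56e-09) and -4.77, the latter given without a p since Ephb1 was near 0 in VIM cells. Efnb3 was higher in VIM by 2.54 (SE 0.192, limma adjusted p = 1.89e-08) and in VM by 2.30 (SE 0.198, limma adjusted p = 1.12e-07), each against MYC cells. For VIM against VM cells, Efnb2 was higher by 4.42 (SE 0.0877, limma adjusted p = 2.85e-16), while Ephb1 was at -6.12 and Grip1 at -3.53 (SE 0.212, limma adjusted p = 2.89e-10). Anks1b, a scaffold of Eph signalling, was at 2.38 for VM against MYC cells, also given without a p since it was at 0 in 3 of 4 MYC libraries with Dox.

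Against kidney, 10 of 38 pathway genes passed in MYC tumours (0 up), 18 of 38 in VIM tumours (2 up) and 14 of 38 in VM tumours (2 up), where 37.4%, 39.6% and 39.8% of all genes passed. The VM count holds Efna5, at no more than 1.33 units in VM tumours, and the VIM count Efna2, at no more than 1.84 units in VIM tumours. Both genes entered through the kidneys and had to differ, so the VM and VIM counts are descriptions that support nothing. The pathway medians were -0.18, -0.91 and -0.69, beside 0.07, 0.01 and -0.05 over all genes. Tiam1 rose in VM tumours by 1.82 (SE 0.51, limma adjusted p = 0.0126) and Pick1, a scaffold protein, in VIM tumours by 1.09 (SE 0.162, limma adjusted p = 0.000372). Anks1b fell by 4.85 in VIM tumours (SE 0.778, limma adjusted p = 0.000597), Chn2 by 4.49 in VM tumours (SE 0.403, limma adjusted p = 1.33e-05) and Ephb3 by 3.75 in MYC tumours (SE 0.983, limma adjusted p = 0.0128). The Ephb3 call in MYC tumours was lost at -3.14 with voom and at -1.26 with edgeR, and its libraries held 0.933, 202.2 and 4.24 units. VIM against MYC tumours gave 0 of 38 with limma.

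Markers of the other kidney cell types moved with the tumour comparisons. The 4 proximal tubule genes summed to 176800, 186500, 202700, 196000 and 166300 units in the kidneys, to 10200, 2392 and 3131 in MYC tumours, to 3456, 5470 and 1283 in VIM tumours and to 4900, 4387 and 6247 in VM tumours. All 4 fell in MYC, VIM and VM tumours, and Slc34a1, the phosphate transporter of that segment, was the most abundant in kidney. The 4 genes of the loop and distal tubule summed to at least 71010 units in kidney and to 41, 2758 and 93.2 in MYC tumours, 158.2, 5974 and 62.4 in VIM tumours and 7.99, 14.4 and 2.47 in VM tumours, with all 4 lower in each comparison. The 3 collecting duct genes summed to 3629 to 5590 units in kidney and to 1.87, 24.7 and 2.83 in MYC, 3.77, 624.1 and 12.9 in VIM and 0, 2.06 and 4.93 in VM tumours, where Aqp2, its water channel, was at 0. All 3 were lower in each comparison. In VM tumours 1 of the loop and distal tubule genes and no collecting duct gene was above the floor. The calls of the rest there follow from the kidney levels and are descriptions. The 4 endothelial genes summed to 2772 to 4649 units in kidney and to 545.7, 1373 and 187.9 in MYC, 427.5, 632.8 and 906.8 in VIM and 1917, 244.3 and 526.5 in VM tumours, and 4, 4 and 3 of them passed downward. Their part in the differences of Epha1, Epha3, Epha7 and the other members between tumours and kidney was not tested.

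The 5 renal epithelial genes, led by Cdh16, summed to 8587 to 18780 units in tumours and 19770 to 28370 in kidney, without overlap. The VIM tumours had 5 of these genes past the test (median -2.01), the VM tumours 4 (-1.34) and the MYC tumours 3 (-0.77), with Pax8 higher and the others lower each time. In VM tumours Pax2, at 0 in 2 of 3 libraries, entered through the kidneys. The 4 leukocyte genes, led by Csf1r in kidney and Cd68 in VIM tumours, summed to 819.6 to 3580 units in tumours and 809.9 to 1900 in kidney, and the T cell gene Cd3e was at 0 in VIM tumours. Csf1r, a receptor of macrophages, also led this list in every cell group, so the list does not separate leukocytes from these cells. The 4 fibroblast genes, led by Col1a1 in tumours, summed to 279.4 to 4454 units in tumours, the highest in 1 library of mouse 2983, and to 601.1 to 1913 in kidney. Each of these 4-gene lists had 1 or 2 calls per tumour group. Snap25, a synaptic protein of neurons, was at 0 in every tumour and kidney library.

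The genes whose levels were most like Epha8 over the 38 libraries, by Pearson r of log2 units, were Gli1 (r = 0.942), Pla2g12a (0.907), Mbtd1 (0.905), Mios (0.902) and Ntpcr (0.902). Gli1, a transcription factor of Hedgehog signalling, reached r = 0.878 over the 24 cell libraries and 0.962 over the 14 tissue libraries. Its group means were 104.5 units in MYC cells with Dox against 21.7 without, 144.8 against 18.5 in VM cells and 18 against 2.73 in VIM cells, and 1224 units in VM tumours against 8.03 in kidney. Epha1 was closest to Spint1 (0.942), Entpd5 (0.910) and Ell3 (0.910), and Epha4 to Maml1 (0.940), Dennd5a (0.930) and Antxr2 (0.930). Epha7 was closest to Col5a2 (0.886), Trim11 (0.878) and Rbms3 (0.866). These correlations describe 10 groups that share libraries of 3 lines and 4 tissues, so they largely follow group differences.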

How the data were processed

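RNA was sequenced as 75 b paired-end reads. Per the labels and methods, the authors aligned them to mm9 with MapSplice, used Picard 1.64 and SAMtools, counted genes with RSEM, and deposited a signal scaled to the upper quartile of each library. Whole reads were recovered from the worth of 1 read, and between 94.4 and 95.9% of low values were whole within 0.02 reads. Groups were compared with limma 3.58.1 (lmFit, eBayes with trend; R 4.3.3) on log2(value + 1), for genes above 0 in at least 4 cell libraries or 2 tissue samples, with Benjamini-Hochberg adjustment over all genes tested. Alternatives used edgeR 4.0.16 (TMM, and quasi-likelihood, added after the data were seen), voom, quantile normalization, pseudocounts of 0.1 and 10, other filters, exact permutation (scipy 1.17.1), kidney subsets, a replicate block and leaving out libraries. The fits were tested on simulated data. The members and gene lists (Eph receptors, ephrins, partners, markers of renal epithelium, proximal tubule, loop and distal tubule, collecting duct, endothelium, leukocytes, fibroblasts, engineered genes) were chosen with earlier results of these data known. Members and list genes could be named. Likeness is given as the 5 highest r for Epha8 and the 3 highest for Epha1, Epha4 and Epha7, among genes whose highest group mean was at least 50 units. Pathway genes with the 2 largest rises and falls that passed were named first. Gene positions came from an mm9 annotation, and promoters from RefSeq.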

Additional observations from a re-analysis of the deposited data

Results flagged for a closer look

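In groups of 4 or 5 libraries, 3 of 30 examined held 1 library far from the others, where chance gives about 1 in 20. These were Epha2 in VM cells with Dox, whose highest library held 2311 units, Epha2 in VM cells without Dox, whose highest held 3814 units, and Epha7 in VIM cells with Dox, whose lowest held 27.5 units.

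The Dox effect differed between VIM and MYC cells by the interaction term of limma, at an adjusted p under 0.05, for 8 of 19 receptors and ephrins tested. Over all genes 7435 of 15630 did, so the count is no more than that of all genes. It holds Epha8, which entered this fit through the MYC libraries, so the count is a description that supports nothing. As VIM minus MYC on the log2 scale, the differences were 0.41 for Epha2, -0.47 for Epha4, -4.99 for Epha8, 0.37 for Ephb3, -0.48 for Ephb4, -1.61 for Ephb6, -0.73 for Efna4 and 0.47 for Efna5. The values of Epha8 and Ephb6 exceeded 1 in size, but Epha8 was at 0 in 7 of 8 VIM libraries, so its value largely restates the rise in MYC cells, and it did not pass with edgeR. The cause was not tested.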

How the results depend on the processing

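Under settings other than leaving out libraries, 525 log2 changes of members kept their direction and their side of the threshold, or, untested, moved by less than the replicate spread. A call was lost in 15 and gained in 1, the sign turned in 10, and 29 untested values moved further. With edgeR the count of members called for VIM minus MYC was 0, with a pseudocount of 10, TMM or quantile normalization that for VIM against MYC cells was 3, and with a pseudocount of 10 or a mean of at least 10 units that for VM against MYC cells was 1. B6 kidneys alone gave 2 members and 10 pathway genes in VIM tumours, and Epha1 (-2.62), Epha3 (-1.75), Epha4 (-1.51) and Epha7 (-2.61) did not pass. The exact permutation test, unadjusted and with no limit on size, counted 4 members in VIM cells, at p = 0.0286, the smallest it can give. As limma has 10712 of 13998 genes at an unadjusted p under 0.05 there, this count says nothing of the family.

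The untested Epha8 difference in VM cells was 6.44 and 2.64 with pseudocounts of 0.1 and 10, 6.47 with voom and 6.30 with edgeR, and in VM tumours it was 13.1 and 7.48 with those pseudocounts, so its size rests on the pseudocount. Signs turned for Epha7 in VIM cells with Dox (0.14, quantile), for Epha3 in MYC cells with Dox (0.0436 TMM, 0.444 quantile, 0.0275 voom, 0.0574 edgeR), for Epha1 in VIM minus MYC (0.0760 pseudocount 10, 0.00556 quantile), for Epha7 there (-0.12, pseudocount 10), for Epha1 in VIM against MYC cells (0.0553, quantile) and for Epha1 in VIM against MYC tumours (0.0458, edgeR). The cause was not tested.

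Leaving out 1 library or mouse gave 1 to 2 members for VIM against VM cells, 1 to 4 for VM against MYC cells and 3 to 5 for VIM against MYC cells. Without any VIM library, Epha7 fails the filter for VIM against VM cells (1 member). Without any MYC library with Dox, Epha3 and Epha7 fail it for VM against MYC cells. This leaves Epha1 alone without replicate 1 or 4 (1 member), and Epha1 with Epha4 without replicate 2 or 3. Without MYC cells with Dox replicate 4, Epha1 and Epha4 fall short for VIM against MYC cells (3 members). Log2 ranges that crossed 0 were -0.22 to 0.12 for Epha3 in MYC cells with Dox, -0.24 to 0.13 for Epha1 and -0.0373 to 0.289 for Epha7 in VIM minus MYC, -0.30 to 1.08 for Epha7 in MYC tumours, and -1.01 to 0.83 for Epha1 and -0.20 to 2.81 for Epha8 in VIM against MYC tumours.

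Over all genes, quantile normalization moved the median change with Dox by 0.16 in VIM, 0.15 in MYC and 0.25 in VM cells, and by 0.23 and 0.25 for VIM and VM against MYC cells. The share of calls that were higher with Dox went from 31.6 to 49.3% in VIM, from 23.0 to 42.0% in MYC and from 23.8 to 48.5% in VM cells, so falls with Dox near 1 depend on the scaling. TMM moved those medians by 0.13, 0.11 and 0.19. Replicate numbers did not pair libraries (mean r = 0.0154 in VIM and -0.184 in VM cells), and a replicate block gave 1 member and 8 pathway genes in VIM cells and 2 members for VIM against VM cells. Calls over all genes in VIM against MYC tumours were 22 with no filter, 7 with the libraries of mouse 2983 apart and 0 to 16 without a mouse. Where mouse 2917 or 2983 is left out, the single MYC tumour mouse left was assumed to vary as the other group did. For partners, alternatives were computed as counts only. Depth limits values under the floor, which holds for Epha3, Epha5 and Epha6 in most libraries.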
